A study of Mus musculus with 30 samples.

Results

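The comparison concerned H3K27ac, acetylation of lysine 27 of histone H3, in CK1750 cells grown with UNC0638 against the same cells grown with its solvent DMSO. CK1750 is a mouse lung adenocarcinoma line that the study describes as resembling tumor-propagating cells (TPCs), and UNC0638 is a small molecule that inhibits G9a and Glp, a pair of histone methyltransferases, and was given at 1 µM. Both groups were the same line in serum-containing medium, and the compound was the only difference in treatment that the labels give. The groups also differed in replicate numbers and sequencing runs, which cannot be told apart from the compound here. The study's methods give 1 drug exposure of several days for its cultured cells in general and none for chromatin immunoprecipitation by name. Members were taken by their labels as H3K27ac samples of CK1750, which gave 5 of the 30 samples of the series. The DMSO group had 3 samples that carry the replicate numbers 1 and 2, because replicate 1 was sequenced in 2 runs, and the UNC0638 group had 2 samples that both carry the number 2. For each group the files hold 1 merged peak list, so 2 of the 4 H3K27ac peak lists of the series were compared, and each sample's description names the merged list of its group. The methods state more biological replicates than the labels number, and neither this difference nor the control used for each list could be resolved. The remaining pair of lists came from Tnm2, another mouse lung adenocarcinoma line treated in the same way (4 samples), and was used for comparison only. There was no replicate list, no spread between replicates could be computed, and no difference described here was tested.

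G9a and Glp, encoded by Ehmt2 and Ehmt1, place mono- and dimethylation on lysine 9 of histone H3 (H3K9me2), a mark found over silent and weakly active chromatin. H3K27ac is placed by the acetyltransferases p300 and CBP and marks active promoters and enhancers. Lysine 9 dimethylation and H3K27 acetylation generally occupy different stretches of chromatin, and inhibitors of G9a are used to ask which genes become active when the former is reduced.

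The DMSO list held 27367 peaks with scores from 50.02 to 3233.06, and the UNC0638 list held 24601 peaks with scores from 50.01 to 3233.06. The score is −10 log10 of the P value the peak caller assigned, and scores piled up at 3100, the value of 558 DMSO and 371 UNC0638 peaks. Scores depend on sequencing depth, which is unknown here, so each peak is also given its rank, the percentile of its score within its own list. A score of 100 stood at rank 37.0 in the DMSO list and at rank 31.9 in the UNC0638 list. A promoter was the 1 kb on each side of any annotated transcription start site (TSS) of a gene, a neighborhood was the gene with 50 kb on each side, and all 21938 protein-coding genes on 21 chromosomes were used. A promoter with peaks in both lists was called kept, one with a DMSO peak only was called lost, and one with an UNC0638 peak only was called gained. These words describe membership of the lists at their calling cutoff, a score of 50, and not a measured change in acetylation.

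The label of the cells was compared with marker genes. Promoter peaks were present in both lists at 6 of 9 epithelial markers, among them the keratins Krt8 (score 3100 with DMSO and 3100 with UNC0638), Krt18 (1296.42 and 1696.20) and Krt19 (1417.01 and 1642.51), the adhesion protein Cdh1 (1171.16 and 1182.63) and the lung lineage factors Nkx2-1 (1267.68 and 1037.16) and Foxa2 (2979.38 and 2434.68). Epcam, Cldn4 and Sftpc, which encodes surfactant protein C, had no promoter peak in either list. The mesenchymal genes Vim, Zeb1 and Cdh2 had promoter peaks in both lists. None of 5 leukocyte, 3 endothelial and 3 fibroblast markers, nor of 5 markers of muscle, neurons and liver, had a promoter peak in either list.

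Upstream sequence is shown for 6 promoters whose strongest peak was in 1 list only and for Nkx2-3, a kept promoter that shows how adjacent peaks joined. Of the promoters ranked highest by score, those shown had a stretch free of annotated exons before their RefSeq start. Each line gives the bases from 200 bases before the start up to the first annotated exon, 5′ to 3′ on the gene's strand, from RefSeq on GRCm38.p6. Capitals mark matches on either strand to short motifs: TGANTCA (AP-1), TGTTTAC (forkhead), CCGGAAG (ETS), GGAATG (TEAD), GGGCGG (SP/KLF), CACGTG (E-box), CCAAT (NF-Y) and TGTGGTT (RUNX). Where matches to the same motif overlap, as for NF-Y at Nkx2-3, only the first is marked.
Cspg4: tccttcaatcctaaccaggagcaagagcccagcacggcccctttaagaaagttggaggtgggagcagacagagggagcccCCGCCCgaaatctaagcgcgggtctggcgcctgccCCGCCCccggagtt
Spag5: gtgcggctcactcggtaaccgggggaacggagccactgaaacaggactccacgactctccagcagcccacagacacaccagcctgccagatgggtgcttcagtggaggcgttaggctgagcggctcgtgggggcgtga
Hif1an: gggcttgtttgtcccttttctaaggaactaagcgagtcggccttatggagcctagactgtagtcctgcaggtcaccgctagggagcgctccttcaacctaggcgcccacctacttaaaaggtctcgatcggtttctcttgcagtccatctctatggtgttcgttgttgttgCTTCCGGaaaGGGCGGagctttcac
Tubb5: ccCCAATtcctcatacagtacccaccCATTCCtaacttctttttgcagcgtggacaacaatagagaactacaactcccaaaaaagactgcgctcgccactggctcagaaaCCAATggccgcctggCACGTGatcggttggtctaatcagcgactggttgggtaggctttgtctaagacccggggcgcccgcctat
H2-M3: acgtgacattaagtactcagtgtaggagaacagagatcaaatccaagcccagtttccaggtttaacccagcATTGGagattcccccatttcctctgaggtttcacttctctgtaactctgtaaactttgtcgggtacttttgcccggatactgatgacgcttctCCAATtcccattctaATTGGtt
Mblac2: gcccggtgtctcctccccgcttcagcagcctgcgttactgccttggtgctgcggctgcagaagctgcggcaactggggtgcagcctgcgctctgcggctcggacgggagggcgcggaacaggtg
Nkx2-3: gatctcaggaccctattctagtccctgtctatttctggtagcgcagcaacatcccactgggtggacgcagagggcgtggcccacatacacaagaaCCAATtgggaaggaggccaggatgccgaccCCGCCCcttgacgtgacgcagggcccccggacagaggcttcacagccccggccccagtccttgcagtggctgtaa

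The stretches of the lost promoters lay at chr9:56864904-56865032 on the plus strand (Cspg4), chr11:78301391-78301528 on the plus strand (Spag5) and chr19:44562654-44562849 on the plus strand (Hif1an). Those of the gained promoters lay at chr17:35838307-35838501 on the minus strand (Tubb5), chr17:37270034-37270219 on the plus strand (H2-M3) and chr13:81711217-81711340 on the plus strand (Mblac2), and that of Nkx2-3 at chr19:43612125-43612324 on the plus strand. All 129 bases of the Cspg4 stretch lay under its DMSO peak, and 80 of 195 bases of the Tubb5 stretch lay under its UNC0638 peak. Cspg4 held SP/KLF letters at bases -120 and -85, and Hif1an held ETS letters at -29 and SP/KLF letters at -19. Tubb5 held NF-Y letters at -198 and -90, TEAD letters at -174 and E-box letters at -75, and H2-M3 held NF-Y letters at -129, -36 and -21. Spag5 and Mblac2 held none of the 8 motifs. In the 200 bases before all 32817 RefSeq starts, SP/KLF letters occurred in 31.0%, NF-Y in 29.3%, TEAD in 10.1%, ETS in 6.3%, AP-1 in 5.48%, E-box in 5.26%, RUNX in 3.49% and forkhead in 2.51%, so a match is a description of these letters and not a binding site.

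Most promoters that carried a peak with DMSO carried one with UNC0638. Of 10671 genes with a DMSO promoter peak, 10157 kept it and 514 lost it, or 4.82% (Wilson 95% interval 4.43 to 5.24, counting error only). Of 11267 genes without a DMSO promoter peak, 334 gained one, or 2.96% (2.67 to 3.29). The remaining 10933 genes had no promoter peak in either list. Among the lost promoters, 472 had no UNC0638 peak within 2.5 kb of a TSS either, and 129 had none within 50 kb. Among the gained promoters, 281 had no DMSO peak within 2.5 kb and 38 had none within 50 kb.

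Lost and gained promoters mostly had weak peaks. The median score of the strongest DMSO peak was 77.955 at lost and 556.39 at kept promoters, and the median score of the strongest UNC0638 peak was 78.195 at gained and 503.73 at kept promoters. Between scores of 50 and 100, 369 of 1046 DMSO promoters were lost, or 35.3% (32.4 to 38.2). The share was 8.84% (7.48 to 10.4) between 100 and 200 and 0.549% (0.333 to 0.904) between 200 and 500. At scores of 500 or more, 3 of 5457 were lost. The gained promoters followed the same course, from 24.8% (22.2 to 27.6) of 988 UNC0638 promoters between 50 and 100 to 5 of 5112 at 500 or more. With a score of at least 100 required of the peak that had no counterpart, 145 of 9625 promoters were lost (1.51%, 1.28 to 1.77) and 89 of 11267 were gained (0.790%, 0.642 to 0.971).

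**Figure D1:**
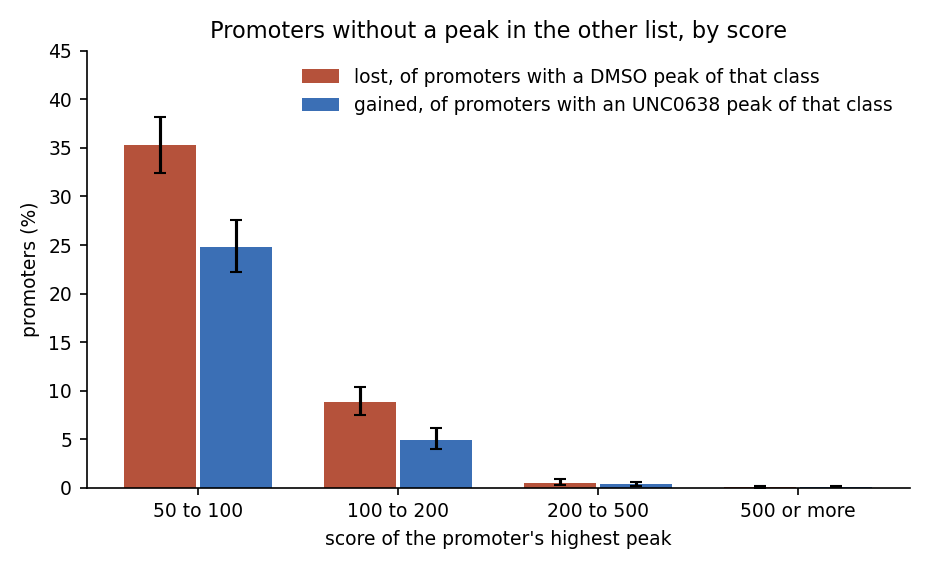
Percentage of promoters without a peak in the other list (y axis) by the score of the promoter's highest peak (x axis), with DMSO promoters that were lost in red and UNC0638 promoters that were gained in blue; bars are shares and lines are Wilson 95% intervals. Both shares were highest in the class from 50 to 100, at 35.3% and 24.8%, and below 1% from a score of 200 upward.

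The strongest lost promoter with no UNC0638 peak within 2.5 kb was that of Cspg4, which encodes the surface proteoglycan NG2. Its DMSO peak of score 290.17 (rank 65.7) spanned chr9:56863992-56865637 across the TSS, and no UNC0638 peak lay there. The next peak upstream had a score of 277.21 with DMSO, where it lay 4.94 to 2.86 kb before the start. With UNC0638 it had a score of 425.46 and ran from -5.24 to -2.64 kb, close outside the 2.5 kb window. The Cspg4 promoter in Tnm2 had a peak in both lists, with scores of 285.23 and 65.45. Spag5, whose product acts at the mitotic spindle, had a DMSO peak of 269.47 at chr11:78301069-78302228 and no other peak of either list between 10 kb before and 15 kb after its start. In Tnm2 its promoter was lost as well (121.24 with DMSO).

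A single DMSO peak of 264.05 at chrX:37190678-37191937 was shared by Ndufa1, a subunit of respiratory complex I, and its neighbor Rnf113a1, and was the 1 peak of either list in both neighborhoods. Cyp1b1, a cytochrome P450 of steroid and xenobiotic metabolism, had a DMSO peak of 241.75 at chr17:79713060-79714129. Pemt, which methylates phosphatidylethanolamine to phosphatidylcholine, had one of 231.81 at chr11:60045670-60046786. Hif1an, the asparaginyl hydroxylase that restrains HIF-1, had a narrow peak of 450 bp and score 199.41 at chr19:44562776-44563225. The promoter states in Tnm2 were mixed, with Ndufa1 and Rnf113a1 lost, Cyp1b1 without a peak, Pemt gained (86.96) and Hif1an kept (210.05 and 76.10). The 3 other promoters of the 10 strongest, 2210418O10Rik (238.18), the Fc receptor gene Fcgr3 (228.74) and Gm14296 (228.11), lay under peaks with 9, 2 and 19 near-identical copies elsewhere in the genome. The promoters just below these 10 were Dnah14 (195.13) and Dpy19l3 (184.71).

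Tubb5, a β-tubulin gene, had the strongest gained promoter with no DMSO peak within 2.5 kb, an UNC0638 peak of score 313.95 (rank 64.6) at chr17:35836767-35838386. It was also gained in Tnm2 (87.47). Sqle, the squalene epoxidase of cholesterol synthesis, had an UNC0638 peak of 241.70 at chr15:59315008-59316311 with a smaller one of 90.98 directly upstream, and the number of peaks in its neighborhood was 1 with DMSO and 3 with UNC0638. Il7, a lymphocyte growth factor gene, had a peak of 213.01 at chr3:7612493-7613483. H2-M3, a non-classical MHC class I gene, had a peak of 197.27 at chr17:37270057-37271098. Neither of the latter genes had a DMSO peak within 50 kb, and each UNC0638 peak was the only one in the neighborhood.

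The other 6 of the 10 strongest gained promoters were Alkbh4 and Lrwd1, which share a peak of 206.26, Pgpep1 (200.52), Atp6v0a2, a subunit of the vacuolar proton pump (196.90), Pigt, part of the GPI transamidase (188.43), and Mblac2 (183.35). The promoters just below were Capns1 (181.68) and Vasn (181.01). In Tnm2 the direction differed for several of the 10. Sqle (52.81 with DMSO), Il7 (98.35), Pgpep1 (117.50), H2-M3 (66.35), Atp6v0a2 (93.83) and Mblac2 (65.63) had a peak in the Tnm2 DMSO list and none in its UNC0638 list, Pigt was kept, and Alkbh4 and Lrwd1 had none. Whether these states differed between the lines was not tested.

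**Figure D2:**
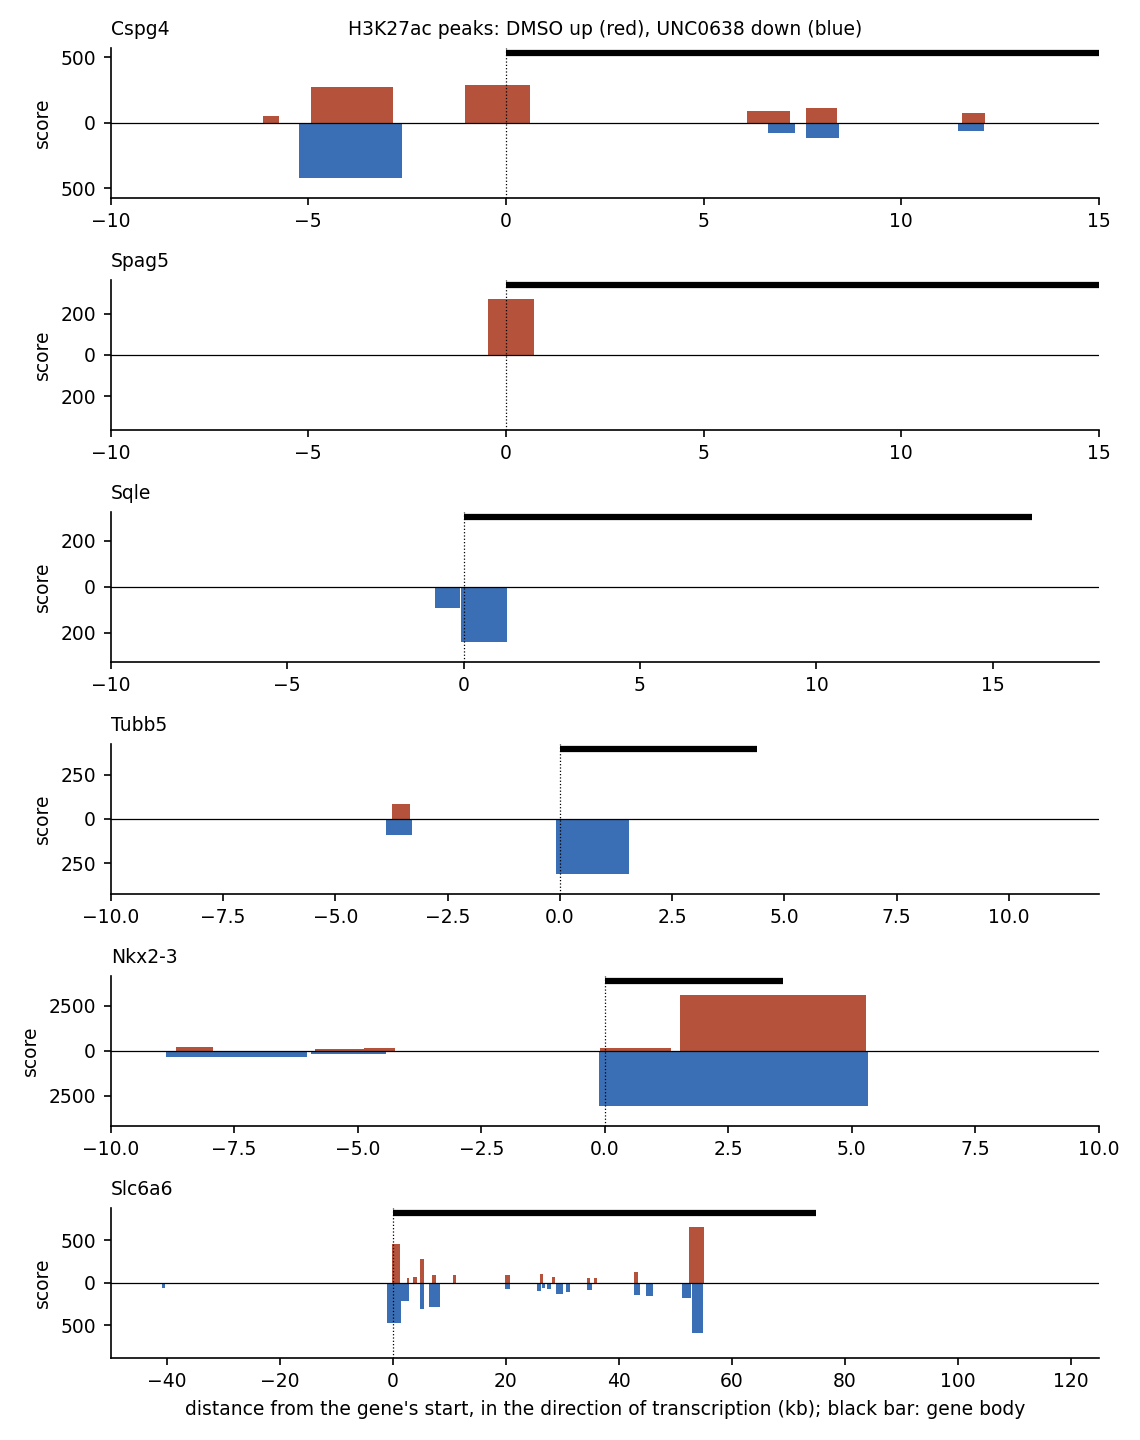
Peaks around 6 genes, drawn to scale by distance from the gene's start in the direction of transcription (x axis, kb) and by score (y axis), with DMSO peaks upward in red, UNC0638 peaks downward in blue and the gene body as a black bar. Cspg4 and Spag5 had a DMSO peak alone at the start, Sqle and Tubb5 had UNC0638 peaks alone there, the 2 DMSO peaks over Nkx2-3 faced 1 UNC0638 peak, and Slc6a6 had 4 DMSO and 11 UNC0638 peaks of score 100 or more.

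Promoter losses were more frequent in Tnm2 than in CK1750, with 1873 of 10480 Tnm2 promoters lost (17.9%) and 132 gained (1.15%). Of the 514 promoters lost in CK1750, 144 were lost in Tnm2, 79 were kept, 16 were gained and 275 had no Tnm2 peak. Of the 334 gained in CK1750, 14 were gained in Tnm2, 106 were lost, 70 were kept and 144 had none. More of the promoters gained in CK1750 were lost than gained in Tnm2, where losses also outnumbered gains over all promoters (1873 and 132). The lines' lists differ in size, depth is unknown, and these counts were not tested.

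Ranks of the 10157 kept promoters shifted little as a whole. The median difference, UNC0638 minus DMSO, was -2.3 percentile points (quartiles -7.9 and 1), and among the 9088 promoters whose scores reached 100 with DMSO and with UNC0638 it was -2.2, with a standard deviation over promoters of 7.9. A rank lower by 10 points or more was found at 1998 kept promoters (19.7%) and a rank higher by as much at 620 (6.10%). The lists differ in length, so equal scores stand lower in the UNC0638 list, and with ranks taken within the 24601 highest-scoring peaks of each list the shares were 13.5% lower and 9.92% higher of 10061 kept promoters, with a median difference of -0.7. The strongest peak of a kept promoter was 1277 bp wide with DMSO and 1416 bp with UNC0638 at the median, and 66.9% of kept promoters had the wider peak with UNC0638.

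The largest falls in rank among promoters at 100 or more in both lists were at Rbm12b1, a gene of an RNA-binding protein (score 646.56 with DMSO and 129.22 with UNC0638, ranks 81.1 and 40.5), the H4 histone gene Hist1h4j (472.30 and 114.53, ranks 75.6 and 36.6), the zinc finger gene Zfp781 (561.69 and 127.87, ranks 78.8 and 40.2), Acot8 and Zswim3, which share a peak (459.70 and 121.18, ranks 75.0 and 38.3), and Gm13287, a gene of the interferon-zeta cluster (384.65 and 109.17, ranks 71.7 and 35.1). Acot8 encodes a peroxisomal acyl-CoA thioesterase. The peaks at these 6 promoters were narrower with UNC0638, for example 853 and 712 bp at Rbm12b1.

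The largest rises in rank came from peaks that joined. At Nkx2-3, a homeobox gene of gut and spleen development, the promoter peak had scores of 153.85 and 3100 (ranks 50.2 and 99.0). The DMSO list, however, already held a second peak of score 3100 from 1.52 to 5.29 kb behind the start, and the single UNC0638 peak ran from -0.12 to 5.32 kb over both. The other 5 of the 6 largest rises, at Cdsn (110.61 and 953.28), Gm45521 (149.91 and 1176.65), Fam57b (150.41 and 1162.23), Ntn5 (136.06 and 832.57) and the thymidine kinase gene Tk1 (242.07 and 2454.25), were of the same kind. When overlapping peaks of both lists were read as 1 region and its highest score in each list was ranked, the differences were 0.3 percentile points at Nkx2-3, 3.7 at Cdsn, 5.8 at Gm45521, -1.8 at Fam57b, 5.0 at Ntn5 and -0.2 at Tk1. The 6 largest falls stayed within 0.1 point of their values. Over all kept promoters the region reading gave 1992 lower (19.6%) and 591 higher (5.82%).

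By this region reading, which was chosen after the values had been seen, rises among promoters at 100 or more in both lists were largest at Serpinb9b, a serine protease inhibitor gene (106.13 and 477.51, ranks 39.1 and 73.9), and P4hb, the protein disulfide isomerase gene (144.51 and 673.80, ranks 48.4 and 80.6). Other large rises were at Ppp1r35 (108.88 and 332.35) and Zfp560 (112.02 and 339.17). The AP-1 gene Fosb (159.22 and 495.53, ranks 51.1 and 74.6) stood among the 14 genes with the largest such rises. In Tnm2 the promoter peak was lost at P4hb and kept at Serpinb9b and Fosb.

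**Figure D3:**
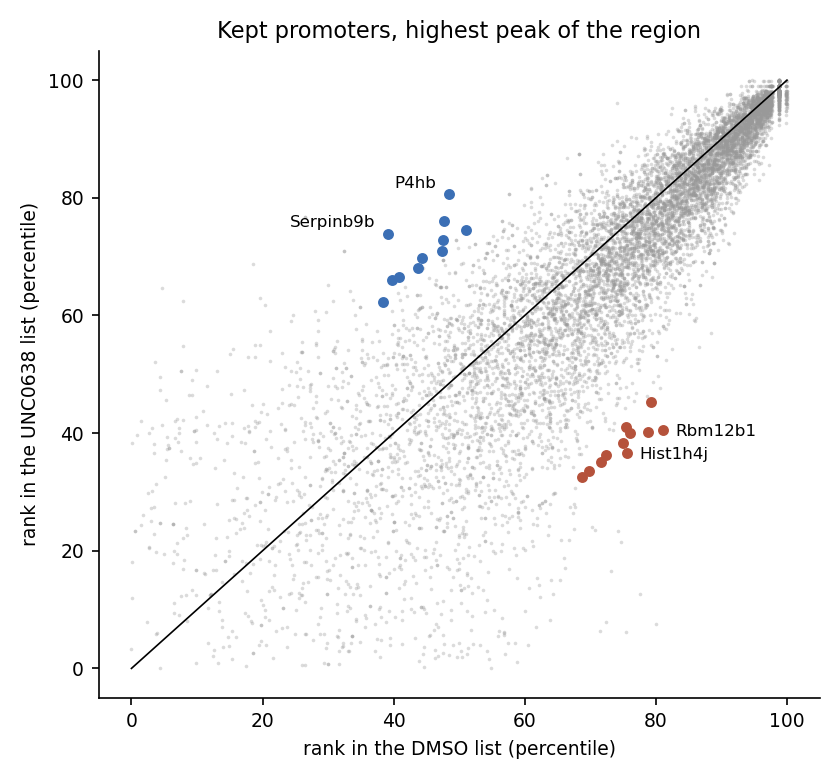
Rank of each kept promoter in the DMSO list (x axis, percentile) and in the UNC0638 list (y axis, percentile), using the highest peak of the region; the line marks equal ranks, and colored points are the 12 largest falls (red) and 14 largest rises (blue) among promoters at 100 or more in both lists, drawn once where genes share a region. Most points lie near or below the line, the median difference was -2.3 percentile points, and the spread is widest at low ranks.

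The genes that write and remove H3K9 methylation kept their promoter peaks, as did 10157 of all 10671 genes with a DMSO promoter peak (4.82% lost). Of 16 genes for H3K9 methyltransferases, their partners and readers, 15 were kept, none was lost and Uhrf1, a reader of H3K9 methylation and hemimethylated DNA, was gained at a score of 57.12, close to the cutoff. Ehmt2, the gene of G9a, had scores of 679.84 and 501.41 (ranks 81.8 and 74.9), and Ehmt1, the gene of Glp, had 467.96 and 539.94 (ranks 75.4 and 76.4). Their partner Wiz had 1426.00 and 972.40, and the partner Zfp644 had 3100 in both lists. Setdb1, the gene of an enzyme that places H3K9me3, showed the largest difference of the list, 238.23 and 83.70 (ranks 61.3 and 24.6).

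Ranks also stood at least 10 points lower at Suv39h1 (189.45 and 150.58), Setdb2 (882.18 and 382.75), the Setdb1 partner Atf7ip (478.43 and 270.71) and the HP1 gene Cbx1 (260.99 and 162.30), and at least 10 points higher at Mphosph8 (132.76 and 234.16). That is 5 lower and 1 higher of 15 kept members, beside the 19.7% and 6.10% of all kept promoters. Suv39h2 (332.15 and 422.58), the corepressor gene Trim28 (187.77 and 275.83) and the HP1 gene Cbx5 (1004.19 and 1165.79) differed by less than 10 points, and Cbx3 and Prdm2 were at 3100 in both lists.

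All 12 H3K9 demethylase genes kept their promoter peaks. Kdm3a had scores of 2251.62 and 1556.37, Kdm3b 2983.18 and 1199.34, and Jmjd1c 2675.05 and 1727.88, each above rank 90 in both lists. Phf8 had 2150.26 and 1755.68, Phf2 3100 and 3100, and Kdm7a 3233.06 and 2530.32. Kdm1a, the gene of LSD1, had 994.55 and 915.59. Lower ranks by 10 points or more were found at Kdm4c (746.19 and 389.93) and Kdm4d (369.41 and 253.91), and Kdm4a (338.26 and 279.25) and Kdm4b (312.86 and 353.14) moved less. Kdm1b, a demethylase gene related to Kdm1a, had the weakest peak, 53.95 and 118.30 (ranks 5.8 and 37.5). All kept promoters with DMSO scores between 50 and 100 had a median rank difference of 6.0.

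Of a list of 10 genes, part of them named in the study's text on G9a, only Ly6a had a promoter peak. Ly6a encodes the TPC surface antigen Sca-1, and its peak had scores of 2044.91 and 1111.22 (ranks 95.1 and 89.1) and widths of 4512 and 4631 bp. In Tnm2 its promoter peak was lost. The metalloproteinase genes Mmp10 and Mmp13 and the actin-bundling gene Lcp1 had no peak within 50 kb in either list. In Tnm2 the Mmp13 promoter was gained, and those of Mmp10 and Lcp1 had no peak. Of 79 metalloproteinase and ADAM genes, 43 had a DMSO peak in the neighborhood, and 3 of these had no UNC0638 peak there. Of the remaining genes, without a DMSO peak there, 4 had neighborhood peaks with UNC0638, Adam30, Mmp8, Mmp20 and Mmp27. The shares over all genes were 3.82% of those without and 3.36% of those with a DMSO peak there. The neighborhood of Anxa10 had 1 DMSO peak, of a score below 100, and none with UNC0638. Ctse, the gene of cathepsin E, had 3 and 1 peaks. The mast cell protease genes Mcpt2, Mcpt4 and Mcpt8 had 5 and 4, 5 and 5, and 7 and 6, and Wnt7a had 4 and 4.

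Over 31 gene lists with 744 symbols, of which 741 matched a protein-coding gene, lost and gained members were few and mostly weak. The lists held 22 lost and 15 gained memberships. Among all genes, 4.82% of promoters with a DMSO peak were lost and 2.96% of those without one were gained. With 100 required of the changed peak, these shares were 1.51% and 0.790%. Whether the lists differed from all genes was not tested. Only 3 lost members had a DMSO score of 100 or more, the matrix cross-linking enzyme gene Loxl2 (103.38) and the glycolytic genes Pfkp (116.61) and Pkm (118.44). Gained members with an UNC0638 score of 100 or more were Itgb6 (205.44), Xaf1 (129.10), Sqle, Gdf15 (708.30) and Tubb5. The stress cytokine gene Gdf15 was gained by the TSS window alone, since the region of its peak held a DMSO peak of 274.14.

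**Figure D4:**
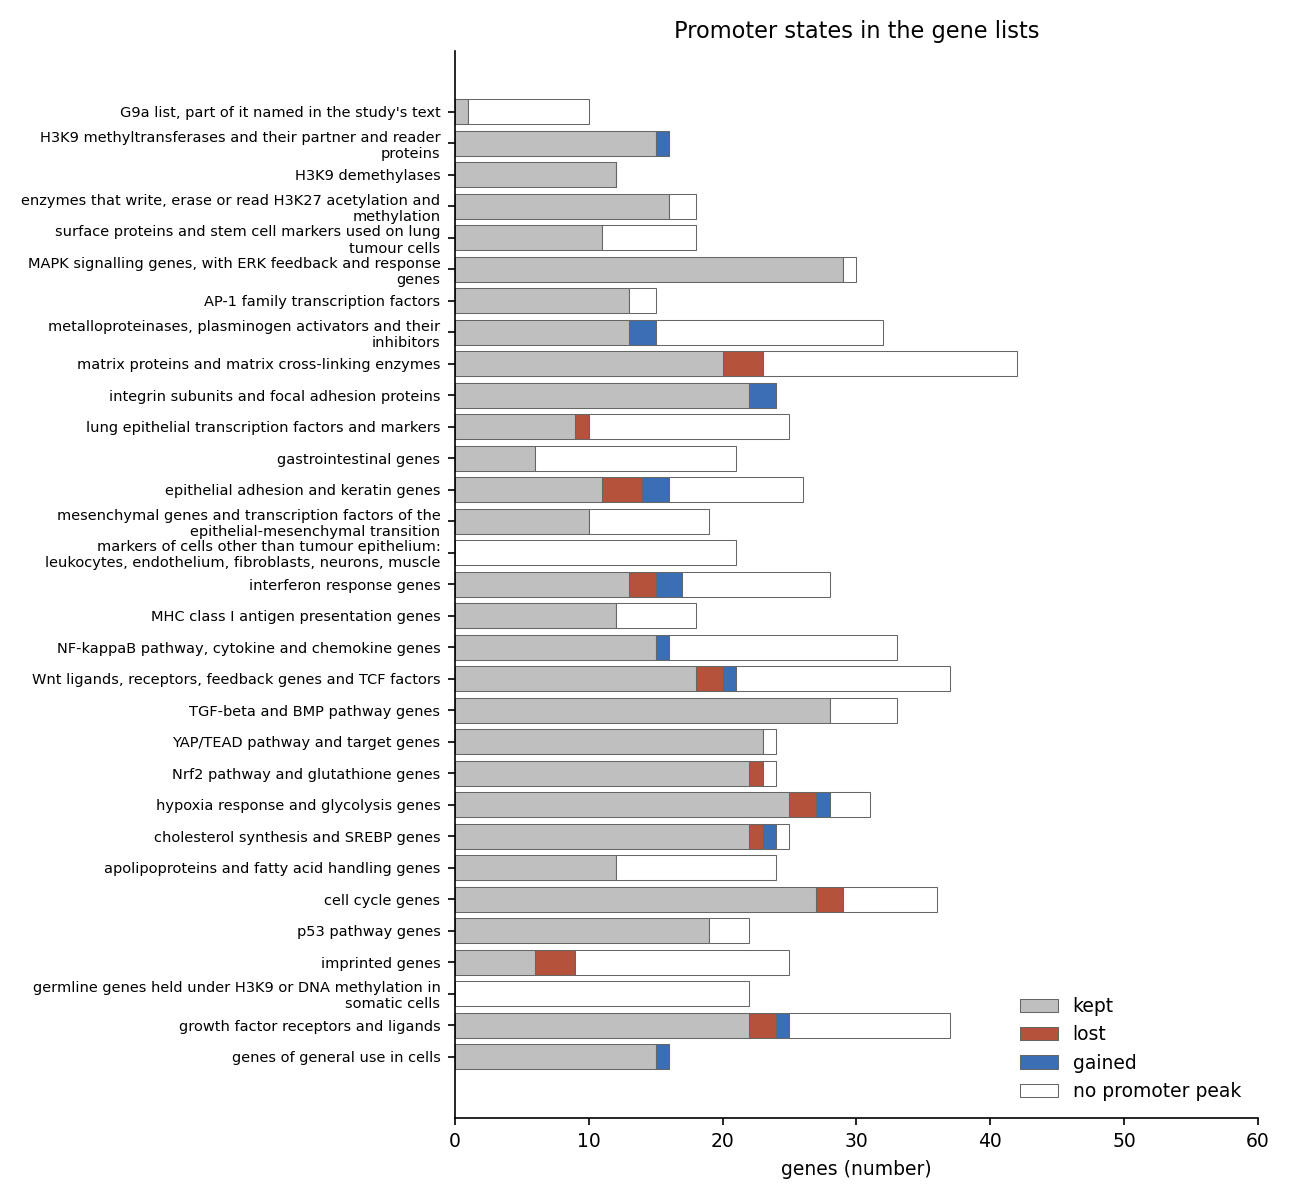
Number of genes (x axis) in each of the 31 gene lists (y axis) by promoter state, with kept in gray, lost in red, gained in blue and no promoter peak in white. Kept promoters make up most of the promoters with a peak in all lists that have any, and the markers of other cells and the germline genes have none.

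The matrix, protease and adhesion lists held 3 lost and 4 gained promoters. Of 23 matrix genes with a DMSO promoter peak, Loxl2 and the proteoglycan genes Vcan (88.26) and Hspg2 (72.77) were lost, which is 3 of 23 beside 4.82% of all promoters and 35.3% of those between 50 and 100. Both of the proteoglycan peaks were in that weakest class. The strongest kept members were Ccn1 (3100 and 3100), the divergently transcribed collagen IV genes Col4a1 and Col4a2 (1876.21 and 1938.85) and Fn1, fibronectin (1844.35 and 1151.51). Of 19 protease and inhibitor genes without a DMSO promoter peak, Adam8 (98.16) and Serpine2 (51.91) were gained, beside 2.96% of all. Among those with one, Mmp14 was kept (528.56 and 379.73). Of the integrin and focal adhesion genes, 22 were kept and the epithelial integrin genes Itgb6 and Itgb8 (97.31) were gained, so that all 24 had an UNC0638 promoter peak. Itgb6 had 1 DMSO peak within 2.5 kb and was not gained in that window. Itgb1, Ptk2 and Zyx kept scores of 3100 or more.

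Epithelial genes showed changes in both directions at low scores, and lung genes a single loss. Lost were 3 of 14 epithelial genes with a DMSO promoter peak, the simple-epithelial keratin gene Krt7 (67.93), the claudin gene Cldn7 (67.77) and the protease inhibitor gene Spint1 (62.64), beside 4.82% of all promoters and 35.3% of those between 50 and 100. Gained were 2 of 12 without a DMSO peak, the desmosomal genes Dsp (95.43) and Pkp3 (81.83), beside 2.96% of all. The club cell gene Scgb1a1 was lost at 53.02, and 9 lung genes were kept, led by Gata6 (3100 and 3100), Foxa2, Foxa1 (1802.28 and 1226.13) and the alveolar water channel gene Aqp5 (1596.07 and 1587.39). The 6 gastrointestinal genes with a promoter peak were kept, among them Sox2 (1426.76 and 2796.27), Onecut2 (1342.76 and 912.52) and Cdx2 (762.77 and 1307.40). The 10 mesenchymal genes with a peak were kept, with Zeb2 at 3100 and 3061.61 and Vim at 3006.11 and 2257.63.

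Signaling lists were largely kept, as were all promoters with a DMSO peak, of which 4.82% were lost. The MAPK list had 29 kept of 30 genes and none lost or gained. The ERK phosphatase genes Dusp4 and Dusp6, Nras and Egr1 were at 3100 or more in both lists. The AP-1 list had 13 kept of 15, the YAP/TEAD list 23 of 24, the TGF-β and BMP list 28 of 33, and the p53 list 19 of 22, each with none lost or gained. Jun and Fosl2, Tead1 and Lats1, and Smad2 and Smad4 were at 3100 in both lists. In the Wnt list the ligand genes Wnt4 (66.46) and Wnt9a (66.13) were lost and the receptor gene Fzd4 (60.42) was gained. In the growth factor list the receptor genes Fgfr1 (55.02) and Fgfr3 (73.52) were lost, while Fgfr2 was kept (3100 and 2604.34).

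Lost and gained immune genes were few, and most of their peaks were near the cutoff. Of 15 interferon response genes with a DMSO promoter peak, the antiviral genes Ddx58 (67.06) and Bst2 (83.60) were lost. This stands beside 4.82% of all promoters and 35.3% of those between 50 and 100. Of 13 without such a peak, Xaf1 and the nucleic acid sensor gene Zbp1 (54.06) were gained, beside 2.96% of all. All 12 MHC class I presentation genes with a DMSO peak were kept, among them H2-T23 (715.89 and 539.48). In the NF-κB and cytokine list 15 were kept, with Nfkb1 and Rela at 3100 in both lists. Tnfaip2 was gained (62.83), 1 of 18 without a DMSO peak.

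Metabolic and cell cycle lists held few changes. Over all promoters, 4.82% of those with a DMSO peak were lost and 2.96% of those without one were gained. Cholesterol synthesis genes gained Sqle, lost Nsdhl (61.06) and kept 22, with the demethylase gene Cyp51 at 1555.93 and 1874.45. The hypoxia and glycolysis list lost Pfkp and Pkm, gained the HIF-2α gene Epas1 (52.69) and kept 25, with Vegfa at 3051.04 and 1835.21. The pentose phosphate gene Taldo1 was lost (63.94) among 23 Nrf2 pathway genes with a DMSO peak. The apolipoprotein and fatty acid list had 12 kept. The cell cycle genes E2f2 (97.88) and Plk1 (88.12) were lost and 27 were kept, with Myc at 3100 and 2767.50. Of 9 imprinted genes with a DMSO peak, Phlda2 (72.09) and Peg10 with Sgce, which share 1 peak of 69.70, were lost, all in the class from 50 to 100 in which 35.3% of promoters were lost.

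The remaining lists served as references. Of 18 writers and readers of H3K27 modification, 16 had a DMSO promoter peak and all were kept, while 4.82% of all such promoters were lost. The other 2 had no promoter peak in either list. The acetyltransferase genes Ep300 and Crebbp were at 3100 in both lists. Of 18 surface marker genes, 11 were kept, none was lost and 7 had no promoter peak in either list. Cd44 was at 1793.77 and 1322.47 and Cd24a at 1231.08 and 1538.69. Among genes of general use, 15 were kept and Tubb5 was gained, with Actb at 3100 in both lists and Gapdh at 612.57 and 596.03. None of 22 germline genes and none of 21 markers of other cells had a promoter peak in either list.

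Kept members whose rank differed by 10 points or more fell outside the naming rule, and those named here were chosen after their values had been seen. In the Nrf2 list 4 of 22 kept genes stood higher, the quinone reductase gene Nqo1 (87.18 and 147.79), the cystine transporter gene Slc7a11 (164.30 and 355.36), G6pdx (122.26 and 215.03) and Gsta4 (54.47 and 75.04), and the heme oxygenase gene Hmox1 stood lower (547.89 and 273.84). Of 27 kept cell cycle genes 3 stood higher, the mitotic genes Ccna2 (61.48 and 210.51), Ccnb1 (53.76 and 124.47) and Mki67 (201.20 and 417.77), and 7 stood lower, among them Ccne2 (341.10 and 151.17) and Pcna (479.63 and 262.33). Of 25 kept hypoxia and glycolysis genes 4 stood higher, with Gpi1 at 79.54 and 234.71, and 6 lower, with Pdk1 at 280.27 and 124.29. Of all kept promoters, 19.7% stood lower and 6.10% higher by as much, and no list was tested against these shares. Rank differences varied with the DMSO score. Their median over kept promoters was 6.0 between 50 and 100, -3.6 between 100 and 200 and -5.2 between 200 and 500. At 500 or more it was -1.8. Nqo1, Gsta4, Ccna2, Ccnb1 and Gpi1 started in the lowest class, where a promoter counted as kept only with an UNC0638 peak above the cutoff.

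Lower ranks and no higher one were counted in several lists, among them 4 of 28 kept in the TGF-β and BMP list, including the activin-binding gene Fst (216.42 and 87.39), 3 of 29 in the MAPK list, including the ETS factor gene Etv4 (508.06 and 161.72), 3 of 22 integrin and focal adhesion genes, 3 of 23 genes of the YAP/TEAD list and 3 of 11 epithelial genes. Single genes with large differences were the receptor kinase gene Axl (351.96 and 145.50), the peptide transporter gene Tap2 (380.89 and 155.59), the citrate lyase gene Acly (312.44 and 106.78), the chemokine gene Cx3cl1 (140.55 and 52.68), Col1a1 (102.58 and 51.89) and the interferon signaling gene Stat2 (52.04 and 120.79). Of all kept promoters 19.7% stood lower and 6.10% higher. Of the list counts given here, only that of the epithelial genes lies above the lower share, and the others lie below it. No list was tested against these shares. Stat2 started between 50 and 100, where the median rank difference of kept promoters was 6.0.

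Families of genes that share a name stem gave further counts. All 81 cytosolic and all 75 mitochondrial ribosomal protein promoters with a DMSO peak were kept, while 4.82% of all such promoters were lost. Of 322 zinc finger promoters with a DMSO peak, 14 were lost (4.35%), near the share of all promoters. Of 105 without one, 5 were gained (4.76%, beside 2.96% of all). Of 308 kept ones, 83 stood at least 10 points lower and 16 higher, beside 19.7% and 6.10% of all kept promoters. Of 64 core and linker histone promoters, Hist1h1a, Hist1h2aa and Hist1h2ba were lost (4.69%, beside 4.82% of all). Of 61 kept ones, 23 stood at least 10 points lower and none stood higher, beside the same shares of all kept promoters. Smaller families picked after their values had been seen were 4 of 12 protocadherins, 5 of 16 ion channels, 5 of 26 receptors named Gpr or Adgr and 3 of 10 cytochromes P450 lost, beside 4.82% of all promoters, 35.3% of those between 50 and 100 and 8.84% of those between 100 and 200. The median DMSO score of the ion channel promoters was 124.03. Kinesins are the motor proteins of microtubules. Of 26 kinesin promoters, those of Kif13b, Kif20b, Kif21b and Kif2c were lost, or 15.4% beside 4.82% of all promoters. Kif18b was gained, 1 of 13 without a DMSO peak. The 39 Hox genes had no peak in either list, neither at promoters nor within 50 kb.

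Most neighborhoods with a DMSO peak kept at least 1 peak with UNC0638. Of 16290 genes with a DMSO peak within 50 kb, 547 had no UNC0638 peak there (3.36%, 3.09 to 3.65), and of 5648 without one, 216 had an UNC0638 peak (3.82%, 3.35 to 4.36). These were sparse neighborhoods, since 466 of the lost ones had held 1 DMSO peak and 193 of the gained ones held 1 UNC0638 peak. List members with a lost neighborhood were Anxa10, the deacetylase gene Hdac1, the surfactant cell transporter gene Slc34a2, Des, Wnt9a, Nsdhl, Apob, Stk31 and the imprinted genes Peg10, Sgce, Grb10 and Dlk1. Members with a gained one were the laminin gene Lama4, Itgb8, the interferon response genes Ifi44 and Xaf1, the adjacent chemokine genes Ccl2 and Ccl7, Epas1, the fatty acid transporter gene Cd36 and Syce1. Of families picked after their values had been seen, 9 of 60 neighborhoods with a DMSO peak were lost at interleukins and their receptors. The counts were 12 of 49 at cytochromes P450 and 12 of 140 at olfactory receptors, whose genes lie in clusters and share neighborhoods. Gained neighborhoods numbered 3, 1 and 22 in the same order. Olfactory receptors thus had more gained than lost, with 140 neighborhoods holding a DMSO peak and 150 an UNC0638 peak.

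The number of peaks of score 100 or more was compared for the 15655 genes with such a peak within 50 kb. It was lower with UNC0638 for 4216 genes (26.9%), higher for 3132 (20.0%) and equal for 8307, with differences from -9 to 7. Peaks of any score were fewer for 6788 of 16506 genes and more for 3267. The covered length moved the other way, with a median of 3.6 kb with DMSO and 3.8 kb with UNC0638 and more covered kb in 60.7% of these genes.

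The largest falls in the number of peaks at 100 or more were of several kinds. Around Gm13271 in the interferon-zeta cluster of chromosome 4, 16 peaks were found with DMSO and 7 with UNC0638, and 13 kept and 2 lost DMSO peaks there had near-identical copies. Around Pdia4, a protein disulfide isomerase gene, the numbers were 11 and 5, and 4 of its 5 lost peaks had copies. Around Runx1, a RUNX family transcription factor gene, the numbers were 15 and 9, but the covered length was 22.6 and 24.6 kb, the top score was 1734.16 and 3100, and only 1 peak of 100 or more had no counterpart. S100a3, among calcium-binding protein genes on chromosome 3, had 16 and 10 peaks with 35.4 and 44.0 kb covered. At both loci the UNC0638 peaks were fewer and covered more bases. The remaining falls were at Hist1h1b in a histone cluster (13 and 8) and at Htra4 with Tm2d2 (9 and 4). Histone genes, a family picked after its values had been seen, had fewer such peaks around 60 of 67 genes and more around 1. Over all genes with such a peak the shares were 26.9% and 20.0%, and histone genes share neighborhoods.

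The largest rises were at Gm20388 (85 and 92 peaks), a gene model spanning several megabases of chromosome 8, the taurine transporter gene Slc6a6 (4 and 11), the cell cycle gene Cks1b (4 and 10) together with its neighbors Pbxip1, Pygo2 and Shc1, Ergic1 (12 and 18), Ttll1 (7 and 13) and Col4a1 (7 and 12). The covered length was larger in all of them, for example 17.4 and 23.5 kb around Col4a1. UNC0638 peaks of 100 or more that overlapped no DMSO peak numbered 7 around Gm20388, 5 around Ergic1 and 3 around each of Slc6a6, Cks1b, Ttll1 and Col4a1. Keratin genes lie in clusters and were picked as a family after their values had been seen. Of all 53, 19 had more peaks of 100 or more within 50 kb and 3 had fewer. Over all genes with such a peak the shares were 20.0% and 26.9%.

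By chromosome, promoters on X were lost most often. On X, 31 of 302 promoters were lost (10.3%, 7.33 to 14.2) and 3 of 646 were gained (0.464%), beside 4.66% and 3.17% over the autosomes. The difference was present within score classes. Below 100, 21 of 36 X promoters were lost (58.3%, and 34.5% on autosomes), and at 100 or more 10 of 266 were (3.76%, and 1.44%). Of the kept X promoters 31.0% stood at least 10 points lower, against 19.4% on autosomes. Chromosomes 14 (8.68%, 6.18 to 12.1) and 4 (7.20%, 5.44 to 9.47) had the next highest lost shares. In Tnm2, 37.8% of X promoters and 17.4% of autosomal ones were lost. The cause of the difference was not tested.

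**Figure D5:**
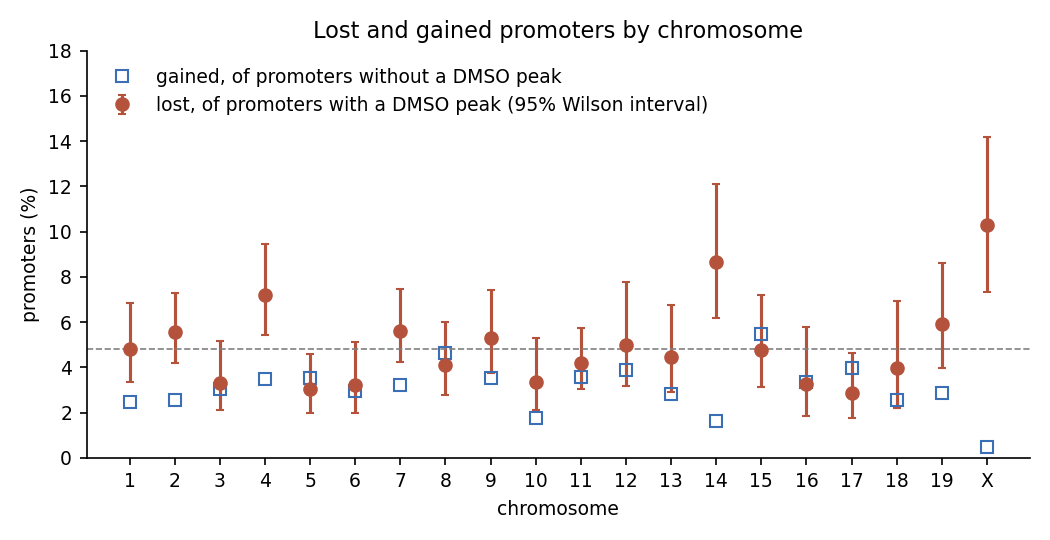
Share of promoters (y axis, percent) that were lost (red points, with Wilson 95% intervals) or gained (open blue squares) on each autosome and on X (x axis), with a dashed line at the lost share of all promoters, 4.82%. Of these chromosomes, X had the highest lost share, 10.3%, and the lowest gained share, 0.464%.

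Peaks with near-identical copies elsewhere in the genome were lost more often in every score class. A copy was an alignment at 95% identity or more over at least 80% of the peak. Of 779 DMSO peaks with a copy, 454 had no UNC0638 counterpart (58.3%, 54.8 to 61.7), beside 20.7% of the others. Between scores of 200 and 500 the shares were 35.1% of 171 (28.3 to 42.5) and 0.866% of 5195. Gained UNC0638 peaks had no such excess, with 11.6% of 352 peaks with a copy and 19.7% of the others. Of 151 lost peaks of 100 or more with a copy, 36 lay in 5 loci. The largest were chr6:47653390-47773428, which reaches the neighborhoods of Pdia4 and Zfp786, with 13 of 15 such peaks lost, chrX:126745898-126778186 with 9 of 11, a zinc finger cluster at chr2:175140735-176424528 with 7 of 15, and the amylase genes at chr3:113243603-113375026 with 4 of 5. How reads with several placements were handled before peak calling is not given in the sources used here, and its part in these losses was not tested.

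Base composition under the peaks varied with score as well as with state. In the central 300 bases, CpG observed over expected had a median of 0.766 at kept and 0.498 at lost DMSO promoter peaks and of 0.383 at gained UNC0638 promoter peaks. Within the class from 50 to 100 the values were closer, 0.546 at kept and 0.455 at lost DMSO peaks, and 0.603 at kept and 0.361 at gained UNC0638 peaks. Away from promoters, AP-1 letters were found in 15.2% of kept (14.6 to 15.9) and 12.4% of lost DMSO peaks (11.6 to 13.4), and in 16.3% of kept (15.6 to 17.0) and 13.8% of gained UNC0638 peaks (12.8 to 14.9). Within the class from 50 to 100 the DMSO shares were 12.5% (11.5 to 13.6) and 12.6% (11.7 to 13.7), so the lower share at lost peaks was not seen in this class. Between 100 and 200 they were 14.3% (13.1 to 15.6) and 12.8% (10.3 to 15.7). Between 200 and 500 they were 18.7% (17.2 to 20.3) and 2.2% (0.6 to 7.7) of 91 lost peaks. In that class 60.44% of lost and 2.38% of kept peaks had near-identical copies, whose part in the difference was not tested.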

How the data were processed

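H3K27ac ChIP-seq of CK1750 cells with DMSO (3 samples) or UNC0638 (2 samples) was grouped by the sample labels. The authors aligned reads with Bowtie2 to mm10 and called peaks with MACS 1.4.2 at a P value of 1e-05. The deposited lists give position and score, and in the deposited score column a value is −10 log10 of that P value. Each group has 1 merged list. Depth is unknown and is not corrected for.

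Peaks on 21 chromosomes were assigned by an overlap of at least 1 bp to promoters and neighborhoods of GENCODE release M 21 protein-coding genes. Wilson 95% intervals cover counting error only. Copies were sought with minimap2 2.31. Python 3.11.15, numpy 2.4.6, pandas 2.3.3, scipy 1.17.1 and pysam 0.24.0 were used. The overlap step was tested on simulated lists, where it recovered 4000 of 4000 planted states.

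Genes named were the 10 strongest lost and gained promoters without a peak of the other list within 2.5 kb, the 6 largest rank falls and rises at 100 or more in both lists, the 6 largest falls and rises in neighborhood peaks, changed members of the gene lists, up to 4 strongest kept members of each list, all members of the H3K9 and G9a lists, and Gapdh and Actb. Members and lists were chosen with earlier results of these data known. H3K9me2 and input samples were not analysed here. A few genes that the rule names are not reported here.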

Additional observations from a re-analysis of the deposited data

Results flagged for a closer look

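The change in the number of peaks of score 100 or more within 50 kb went in opposite directions in the 2 lines at 5 of the loci named above. Around Gm20388 the difference was 7 in CK1750 (85 and 92 peaks) and -46 in Tnm2 (99 and 53). Around Slc6a6 it was 7 in CK1750 (4 and 11) and -7 in Tnm2 (12 and 5). Around Cks1b it was 6 (4 and 10) and -4 (8 and 4). Around Ergic1 it was 6 (12 and 18) and -7 (13 and 6). Around Col4a1 it was 5 (7 and 12) and -2 (10 and 8). With 1 list per group, none of these differences was tested, and the loci had been chosen for their rise in CK1750. The Tnm2 UNC0638 list was the smaller of its pair throughout, with 17.9% of promoters lost.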

How the results depend on the processing

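Leaving out a replicate was not possible, since each group has 1 merged list. No paired analysis was possible because the lists carry no replicate numbers. Of all promoters with a DMSO peak, 4.82% were lost, and the share was 5.58% with peaks of 100 or more in both lists, 1.51% with 100 required of the changed peak alone, 4.11% with equal numbers of peaks and 4.42% with absence over 2.5 kb. The gained share of 2.96% was 3.37%, 0.79%, 3.76% and 2.56% in the same order. The lost neighborhoods, 3.36%, were 4.74% with 10 kb, 2.81% with 100 kb, 2.93% with 100 in both lists, 0.851% with 100 for the changed peak, 2.61% with equal numbers and 2.87% without peaks that have copies. The gained neighborhoods, 3.82%, were 0.974% with 100 for the changed peak and 4.8% with equal numbers. With equal numbers of peaks, lost and gained promoters were 431 and 430. List members lost at promoters were 22, and 14 with 100 in both lists and 3 with 100 for the changed peak. Those gained at promoters were 15, and 5 with 100 for the changed peak. Lost neighborhoods of list members were 13, and 28 with 10 kb, 6 with 100 in both lists, 1 with 100 for the changed peak and 8 with equal numbers. Gained ones were 9, and 2 with 100 for the changed peak. Promoter windows of 2.5 and 0.5 kb and TSSs of coding transcripts alone moved no such share beyond its counting interval. Of the 20 named lost and gained promoters, 17 kept their state under every alternative. The exceptions, 2210418O10Rik, Fcgr3 and Gm14296, dropped out when peaks with copies were left out. Kept promoters with a rank lower by 10 points were 19.7%, and 13.5% with ranks in equal numbers of peaks, and those with a higher one 6.10% and 9.92%. Autosomes alone, peaks without copies, ranks in equal numbers of peaks and overlapping peaks read as 1 region were alternatives chosen after seeing the data. The last turned the rank difference at Fam57b from 40.2 to -1.8 and at Tk1 from 35.5 to -0.2.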
